A study of Mus musculus with 3 samples.

Results

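Klrk1, Klrd1, Klrc1, Klrc2, Klre1 and Klrb1c encode lectin-like receptors of natural killer (NK) cells, and their transcripts were followed here in 3 single-cell libraries of mouse thymocytes. The members were chosen by name, and all 6 genes were listed in every library, among 28692 genes in the first and second runs and 32285 in the third. Each run was 1 library of C57BL/6 thymocytes, from 4 thymi of 6-week-old mice pooled before sorting. The labels name no transgene, deletion or treatment, and all 3 sorts excluded cells bearing CD4, CD8, B220, CD11b, CD11c, NK1.1 or TCRβ. The first run held total double negative (DN) and TCRγδ+ thymocytes. The second run held CD44+ DN1 and DN2 cells without TCRγδ+ cells. The third run held DN1 with DN2, DN3 and TCRγδ+ cells that had been sorted separately and then mixed. Since each sort was sequenced once, no test between runs or between populations was possible, and intervals are exact 95% intervals that cover counting error only.

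NK cells and some T cells use these receptors to read stress ligands and class I molecules on other cells. NKG2D, encoded by Klrk1, is an activating receptor that binds stress-induced class I-like ligands and signals through the adaptors DAP10 (Hcst) and DAP12 (Tyrobp). CD94, encoded by Klrd1, pairs with NKG2A (Klrc1), which is inhibitory, or with NKG2C (Klrc2), which is activating, and both pairs bind Qa-1b (H2-T23). Klre1 encodes a receptor that pairs with the products of Klri1 or Klri2. Klrb1c encodes NK1.1, the antigen that defines NK cells in C57BL/6 mice and the marker that was gated out here. In the thymus such receptors are known from NK cells, innate-like T cells and some γδ T cells.

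The genes lie in the NK gene complex on chromosome 6 (GRCm38 coordinates, GENCODE M21). Klrb1c spans chr6:128778485-128789215 on the minus strand. The other members lie together within 101 kb, 789 kb further on. Klre1 (chr6:129577905-129585827) and Klrd1 (chr6:129591782-129598775) are on the plus strand, and Klrk1 (chr6:129610323-129623864), Klrc2 (chr6:129647496-129660689) and Klrc1 (chr6:129666015-129678973) are on the minus strand. Klrc1 and Klrc2 are near copies of each other. Of the 50-base windows in the last 300 bases of the annotated Klrc1 coding transcripts, 53.1% also occurred in a Klrc2 transcript, and 20.1% the other way, so reads of this pair can be ambiguous and their split is uncertain.

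The promoters are shown because many cells held UMIs of several of the 6 genes, though few held all 6. Whether more cells did so than the rates of the single genes would give was not computed. RefSeq windows of the 250 bases before a start site (GRCm38.p6) were given for 5 members, while Klrd1 had no entry. The core Runx motif TGTGGT, or its reverse complement ACCACA, occurred in at least 1 window of each of these 5 genes, in 6 of 7 windows. Of all 32851 windows of this length, 14.0% held it. The 2 windows of Klrc2 overlap and hold the same matches, those of Klre1 overlap as well, and the motif was chosen after these windows had been read. Windows of Klrk1 and Klrc1 that overlap no exon of their gene are given on their own strand, with the match in capitals.
Klrk1, chr6:129623865-129624114, minus strand: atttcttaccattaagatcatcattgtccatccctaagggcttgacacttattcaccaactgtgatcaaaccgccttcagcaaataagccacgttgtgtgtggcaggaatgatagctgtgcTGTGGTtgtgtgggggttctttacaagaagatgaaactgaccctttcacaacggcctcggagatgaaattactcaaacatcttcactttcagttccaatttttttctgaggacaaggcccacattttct
Klrc1, chr6:129678974-129679223, minus strand: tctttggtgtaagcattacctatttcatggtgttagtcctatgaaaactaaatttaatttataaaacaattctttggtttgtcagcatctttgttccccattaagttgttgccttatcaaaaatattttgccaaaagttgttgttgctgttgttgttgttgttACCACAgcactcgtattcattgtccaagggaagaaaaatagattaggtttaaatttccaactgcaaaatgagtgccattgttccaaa
The match began 129 bases before the start of Klrk1 and 87 bases before that of Klrc1. A match of these letters is a description of the window and no evidence of binding.

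Unique molecular identifiers (UMIs) were counted for 23283 cells, of which those outside 500 to 5000 genes, or above 7% mitochondrial counts, were left out. This left 5516, 8852 and 7511 cells in the first, second and the third runs, with medians of 5989.5, 4844 and 8507 UMIs per cell. The first and second runs shared 72 kept cell barcodes, the first and the third runs 1, and none of these was positive for a member in both runs. The first run stood apart from the others for these genes, and results are therefore given by run. Levels of different genes were compared as UMIs counted at the 3' end, which do not scale with transcript length. Fewer cells of a type and less RNA per cell cannot be told apart in sums over a whole run.

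At least 1 UMI of the 6 genes was found in 38 of 5516 cells of the first run (0.689%, interval 0.488 to 0.944), in 3062 of 8852 cells of the second (34.6%, 33.6 to 35.6) and in 1774 of 7511 cells of the third (23.6%, 22.7 to 24.6). After thinning every cell to 2000 UMIs, the shares were 0.471%, 27.4% and 16.5%, with 48 cells of the third run too shallow to be thinned. The members were thus seen in the sorts enriched for DN1 and DN2 cells and were rare in the sort of total DN cells. The methods name more than one reagent kit and version of the counting software without tying each to a library, and with 1 library per sort their part cannot be told apart from that of the sort. Positive cells held means of 4.05, 6.38 and 7.72 UMIs of the 6 genes in the first, second and the third runs, and the highest cell held 18, 39 and 64.

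Klrd1 was the most abundant member in the second run, at 140 counts per 1000000 UMIs (CPM, interval 136 to 143). It was followed by Klrk1 at 88.9 CPM (86.3 to 91.5), Klrb1c at 57.9 and Klrc1 at 31.7 (30.2 to 33.3). Klre1 at 27.0 CPM (25.6 to 28.4) and Klrc2 at 26.3 (24.9 to 27.7) had overlapping intervals and did not differ beyond counting error.

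Klrd1 at 46.4 CPM (44.9 to 47.9) and Klrk1 at 45.9 (44.4 to 47.5) did not differ beyond counting error in the third run. They were followed by Klrb1c at 32.5 CPM (31.2 to 33.8), Klrc2 at 21.5 (20.5 to 22.6), Klre1 at 15.8 (14.9 to 16.7) and Klrc1 at 12.7 (12.0 to 13.6). All 6 genes were therefore lower than in the second run, but not in the same proportion. In the first run the levels were between 0.176 CPM for Klrc2 (7 UMIs in 5 cells) and 1.18 for Klrd1 (47 UMIs in 23 cells), and the intervals of neighbors in this order overlapped. Summed over the 6 genes, the level was 3.87, 371 and 175 CPM in the first, second and the third runs. The mean over cells of the CPM of each cell was higher, at 6.27, 724 and 299.

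**Figure D1:**
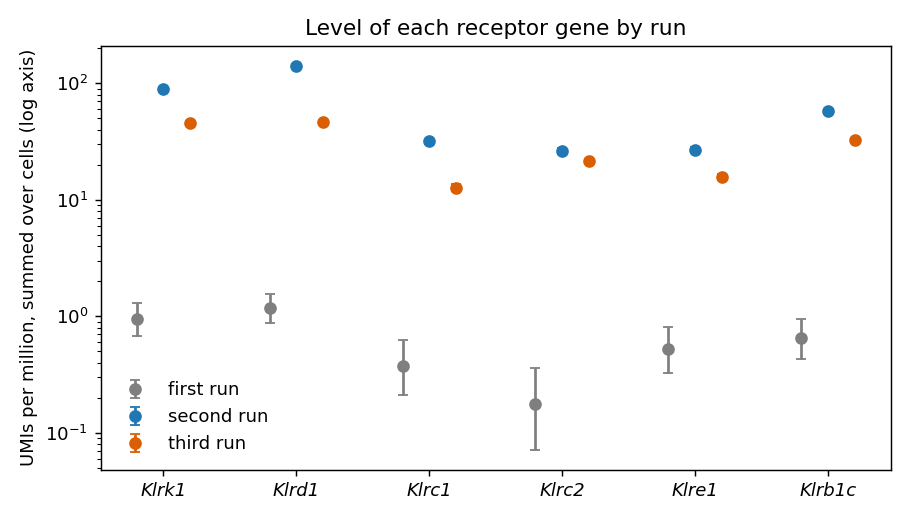
Level of each receptor gene in the 3 runs, in CPM summed over kept cells on a log axis; points are the 3 libraries and bars are exact Poisson 95% intervals. The second run (371 CPM over the 6 genes) lies above the third (175) for every gene, and the first (3.87) lies far below both.

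The order of the NKG2 genes differed between the second and the third runs. Klrc2 took 45.3% of the UMIs of Klrc1 and Klrc2 together in the second run (43.5 to 47.1) and 62.8% in the third (60.9 to 64.6), while the first run had only 22 UMIs of the pair. The third run lists more genes than the second, and the sort differed as well, so annotation, processing and cells cannot be told apart. Klrc3, a neighbor of this pair that also encodes an NKG2 receptor, had 1 UMI in the positive cells of the second run and 25 in those of the third.

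Receptor constant-region transcripts differed between positive and negative cells. Trac, the constant region of TCRα, was found in 74.8% of the positive cells of the second run (73.2 to 76.3) and in 69.6% of those of the third (67.4 to 71.8), against 16.1% and 14.0% of cells without a member. Trdc, the constant region of TCRδ, showed the opposite order, with 30.5% (28.9 to 32.2) and 30.9% (28.8 to 33.2) of positive cells against 78.4% and 74.0% of negative cells. Of the 38 positive cells of the first run, 12 had Trac (31.6%, 17.5 to 48.7) and 24 had Trdc (63.2%, 46.0 to 78.2). The negative cells of that run had 12.2% and 77.3%, the latter inside the interval of the positive cells. The positive cells were shallower, with a median of 3109 against 5714.5 UMIs in the second run and 6604.5 against 9216 in the third. After thinning to 2000 UMIs, Trac was found in 77.9% of positive against 11.4% of negative cells in the second run, and in 56.8% against 7.65% in the third. Trdc was then found in 14.9% of positive against 55.3% of negative cells in the second run, and in 12.7% against 43.0% in the third.

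Between the members, Trac was found in 90.1% of Klrb1c-positive, 88.5% of Klrc2-positive, 87.8% of Klrc1-positive, 85.5% of Klre1-positive, 83.7% of Klrk1-positive and 82.8% of Klrd1-positive cells of the second run. Those of the third run ran from 75.5% for Klrk1 to 84.0% for Klrb1c. The shares of Klrb1c-positive and Klrc2-positive cells did not differ beyond counting error, with intervals of 88.6 to 91.5 and 86.2 to 90.5 in the second run and of 81.7 to 86.1 and 79.2 to 84.9 in the third. After thinning they were 86.4% and 85.9% in the second run, and 63.1% and 62.5% in the third. NK1.1+ and TCRβ+ cells had been gated out at the surface. Surface protein was not measured in these libraries.

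CD3 transcripts were found in nearly all cells with these genes. At least 1 UMI of Cd3d, Cd3e or Cd3g was present in 36 of 38 positive cells of the first run (94.7%, 82.3 to 99.4), in 98.4% of those of the second (97.9 to 98.8) and in 96.5% of those of the third (95.5 to 97.3). The cells without a member had 99.0%, 95.3% and 94.6%, so CD3 was found in nearly all negative cells as well. After thinning, the shares were 84.6%, 98.1% and 95.2% in positive cells, against 95.7%, 89.8% and 87.7% in negative cells.

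The members were also described by which constant region a cell held. Trdc transcripts were not limited to γδ cells here. Of the DN3-like cells described below, 66.6% had Trdc in the second run, which was sorted without TCRγδ+ cells, and 65.8% in the third. Trdc-only cells are therefore not a measure of γδ cells. In the second run, 1919 of 2381 cells with Trac and no Trdc were positive (80.6%, 78.9 to 82.2), against 562 of 4626 cells with Trdc and no Trac (12.1%, 11.2 to 13.1). For the third run, 1018 of 1305 Trac-only cells (78.0%, 75.7 to 80.2) and 332 of 4057 Trdc-only cells (8.18%, 7.36 to 9.07) were positive. Cells with neither transcript were positive in 20.9% and 14.6% of cases. In the first run, 5 of 98 Trac-only cells (5.10%, 1.68 to 11.5) and 17 of 3674 Trdc-only cells (0.463%, 0.270 to 0.740) were positive. Trdc-only cells were deeper than Trac-only cells, with medians of 6169 against 2905 UMIs in the second run and 10052 against 6607 in the third. After thinning, 76.8% of Trac-only and 6.29% of Trdc-only cells were positive in the second run, and 67.1% and 4.36% in the third. Those with neither transcript were then positive in 11.7% and 11.4% of cases.

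**Figure D2:**
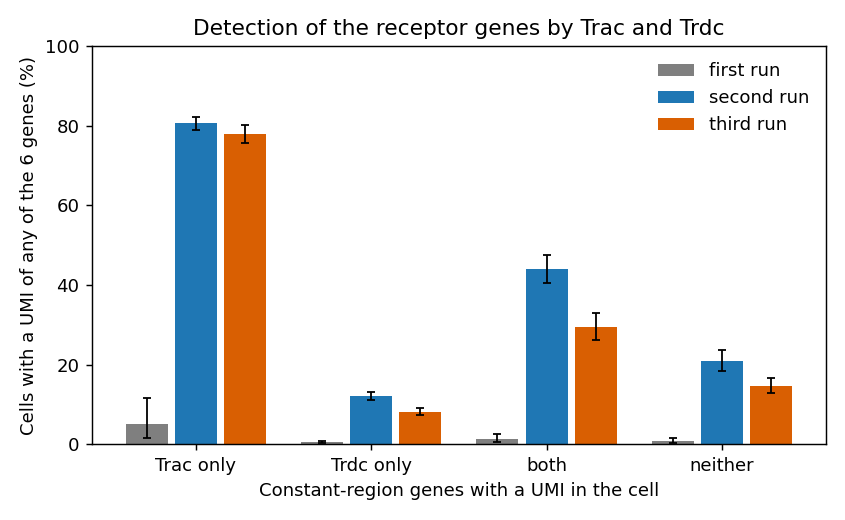
Share of cells with a UMI of any of the 6 genes, in percent, by the constant-region genes found in the cell and by run; bars start at 0 and error bars are exact binomial 95% intervals, from all UMIs of each cell without thinning. Trac-only cells reach 80.6% and 78.0% in the second and the third runs, against 12.1% and 8.18% of Trdc-only cells. Trdc was also found in most DN3-like cells of these runs, so Trdc-only cells are not γδ cells alone.

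Summed over cells, each member was at least 2-fold higher in Trac-only than in Trdc-only cells in both of these runs, where 9.86% of 10865 genes with at least 50 UMIs were so in the second run and 10.2% of 12072 in the third. Klrk1 was at 449 CPM in Trac-only and 7.07 in Trdc-only cells of the second run, a log2 ratio of 5.99. The ratio of Klrc1 was 6.67 (6.27 to 7.10) in that run, with 164 and 1.61 CPM, and that of Klrb1c was 6.49 (6.21 to 6.78), so these did not differ beyond counting error. In the third run the ratios ran from 4.94 for Klre1 (4.66 to 5.23), with 77.5 and 2.53 CPM, to 5.83 for Klrb1c (5.60 to 6.08), with 185 and 3.24 CPM. The intervals of neighbors at both ends of this order overlapped, with Klrc1 at 5.01 (4.70 to 5.33) and Klrc2 at 5.53 (5.26 to 5.81). The members were thus above 99.2% to 99.9% of the genes compared.

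Of all positive cells, 12.1% in the second run and 12.2% in the third held both Trac and Trdc. Of negative cells, 8.17% and 9.05% did. After thinning, the shares were 5.57% of positive against 3.19% of negative cells, and 3.33% against 2.49%. The 8% of cells with the highest Scrublet doublet scores were then left out. The unthinned share of positive cells was 6.13% in the second run (5.26 to 7.10) and 8.65% in the third (7.31 to 10.1). For this share, the classes below and their lists, this removal was chosen after the data had been seen. Without these cells, 24.5% rather than 30.5% of the positive cells of the second run had Trdc, and 27.0% rather than 30.9% of those of the third.

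To locate the genes among thymocytes, each run was clustered without the 6 members, any other Klr gene or the listed genes below. The 3 clusters that held most of their UMIs had 90.9%, 84.5% and 74.1% of all UMIs of the 6 genes in the first, second and the third runs. In the second run, 5 of 26 clusters were named cytotoxic lymphocyte-like from markers such as Nkg7, Ccl5, Gzmb, Ctsw, Il2rb and Tbx21. They held 2247 cells and 91.2% of the UMIs of the 6 genes. None of them met the remaining markers of this type, Gzma and Prf1, and Prf1 was at 2.44 CPM over these cells. Cluster 23 met only Ccl5, Ctsw and Il2rb. Of the 33 clusters of the third run, 5 with 1235 cells had this name and held 78.9%, and 1 cluster of 101 cells, named NK cell-like, held 9.86%. None of the 5 met Gzma, cluster 12 met only Nkg7, Gzmb, Ctsw and Il2rb, and cluster 21 only Ccl5, Ctsw and Il2rb. All 5 also met markers of innate-like αβ T cells from among Zbtb16, Cd5 and Icos. Clusters 2 and 23 of the second run met Cd5 and Icos as well. No cluster of the first run with many UMIs of the 6 genes could be named. Its 184-cell cluster 13 held 60.4%, in 18 positive cells (9.78%). It met as many γδ as cytotoxic markers, met the NK cell markers Fcer1g and Tyrobp, and was led by Gzmc, Klf2 and Cd52. Trdc was found in 88.6% of all its cells, most of which held no member.

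In the cytotoxic lymphocyte-like cells of the second run, 91.5% were positive and Klrd1 was at 874 CPM, Klrk1 at 548, Klrb1c at 336, Klrc1 at 200, Klrc2 at 165 and Klre1 at 163. Those of the third run were positive in 84.3% of cells, with Klrd1 at 338 CPM, Klrk1 at 333, Klrb1c at 227, Klrc2 at 164, Klre1 at 110 and Klrc1 at 91.2. Trac was found in 91.2% and 86.7% of these cells and a CD3 gene in 99.8% of both. The class contained 1 cluster in each run that was made almost wholly of cells with the highest Scrublet scores (166 and 51 cells), with Trac in 87.3% and 78.4% and Trdc in 81.9% and 70.6% of cells. Without the highest scores, 92.1% and 84.3% of the class were positive, and Klrd1 was at 1031 and 361 CPM.

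The members also varied among these clusters. In the second run, cluster 1 (868 cells) had 914 CPM of Klrk1 and 300 of Klre1, against 556 and 144 in cluster 2 (838 cells). Cluster 17 (221 cells), whose leading genes included the interferon-response genes Ifit3 and Ifit1, had 625 CPM of Klrk1 and 155 of Klre1. Over these 3 clusters Klrd1 was between 1063 and 1203 CPM and Klrb1c between 354 and 479.

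In the third run, cluster 12 (281 cells), led by Izumo1r, Gimap4 and Bcl2a1b, had 197 CPM of Klrk1, 46.4 of Klrc1 and 67.0 of Klre1, whereas cluster 1 (550 cells) had 553, 162 and 190. Klrd1 was at 350 CPM in the former and 498 in the latter, and Klrb1c at 255 and 332. Cluster 20 (185 cells), whose leading genes included Ifit3, had Klrk1 at 550 CPM and Klrc1 at 137, near cluster 1, with Klrd1 at 351 and Klrb1c at 271, near cluster 12. The members that differed most therefore depended on the pair of clusters compared.

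The NK cell-like cluster of the third run had Klrk1 at 692 CPM (626 to 764), Klre1 at 301 (257 to 349) and Klrc1 at 245 (206 to 289), above the 553, 190 and 162 CPM of cluster 1 beyond counting error. Klrd1, at 558 CPM (498 to 622), Klrb1c, at 308 (264 to 357), and Klrc2, at 257 (217 to 302), had intervals that overlapped those of cluster 1, at 498, 332 and 277. The cluster took its name from the 9 NK cell markers, so their levels there describe that choice. They summed to 5015 CPM, and Ncr1, one of them, which encodes the NK receptor NKp46, was found in 50.5% of its cells. Trac was found in 31.7% of its cells, Trdc in 41.6% and a CD3 gene in 77.2%. In the cytotoxic lymphocyte-like class, Ncr1 was found in 0.935% and 0.972% of cells of the second and the third runs, and the 9 markers summed to 747 and 830 CPM, most of it Gzma and Fcer1g.

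**Figure D3:**
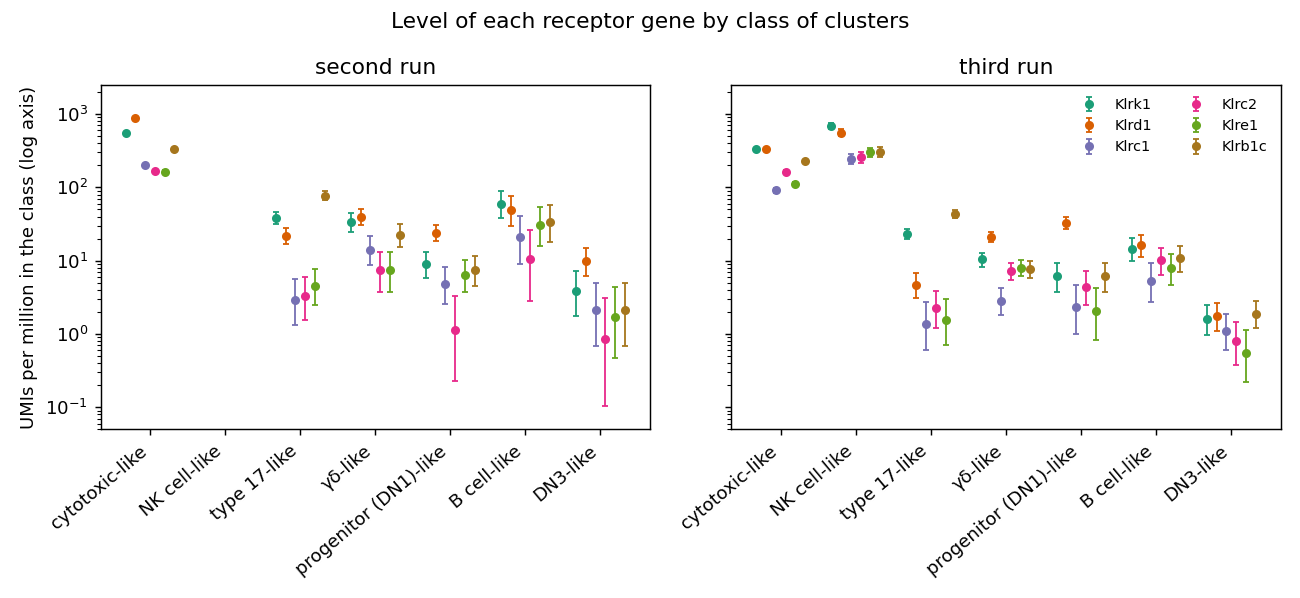
Level of each receptor gene, in CPM on a log axis, in the classes of clusters of the second and the third runs; points are sums over the cells of a class and bars are exact Poisson 95% intervals, and no cluster of the second run was NK cell-like. All 6 genes are highest in the cytotoxic lymphocyte-like and NK cell-like classes, and Klrb1c, at 77.5 and 43.7 CPM, is above the other members in the type 17-like class.

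The other classes were read beside cell types not known for these receptors. DN3-like cells, which should lack these receptors, were positive in 8.05% of cells in the second run and 5.31% in the third, at medians of 3849 and 7293 UMIs, or 3.94% and 1.52% after thinning. B cell-like cells, left despite the B220 gate, were positive in 31.5% of 54 cells and in 7.45% of 376 cells, at medians of 3216.5 and 4889.5 UMIs, or 22.2% and 4.56% after thinning. They are no clean reference, since a CD3 gene was found in 63.0% and 51.3% of them. Cluster 26 of the second run and cluster 28 of the third also met the NK cell markers Fcer1g and Tyrobp. The latter held 5 UMIs of Ncr1, another NK cell marker. The γδ-like class was positive in 12.6% and 8.39% of cells (10.8% and 4.59% after thinning). The thinned shares of the γδ-like class, with intervals of 8.14 to 14.0 and 3.36 to 6.12, were above those of DN3-like cells (2.51 to 5.85 and 0.983 to 2.23) and overlapped those of B cell-like cells (12.0 to 35.6 and 2.68 to 7.20). At least 3 members were found in 12 and 23 γδ-like cells (2.60% and 2.38%) and in 4 and 9 B cell-like cells (7.41% and 2.39%), but in 0 DN3-like cells. The reference classes thus gave no single background level, and the share that free RNA would give was not measured. Without the highest Scrublet scores, 8.35% of γδ-like (5.89 to 11.4) and 7.99% of DN3-like cells (5.91 to 10.5) were positive in the second run. In the third run these shares were 5.92% (4.44 to 7.71) and 5.09% (4.07 to 6.29). These shares were not thinned, and in each run the classes did not differ beyond counting error. With the same cells left out, Klrk1 in the γδ-like class was at 11.2 rather than 33.7 CPM in the second run and at 2.49 rather than 10.4 in the third. Of the γδ-like UMIs in the third run, most were in cluster 25 (134 cells), led by the proliferation genes Nusap1 and Mki67, where 54.5% of cells had the highest Scrublet scores and Klrd1 was at 52.3 CPM.

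Klrb1c was the leading member in the type 17 lymphocyte-like class, cells that resemble producers of IL-17. It was at 77.5 CPM in the second run and 43.7 in the third, above the 33.7 and 10.9 CPM of B cell-like cells. Klrb1c made up 78.0% of the UMIs of Klrb1c and Klrd1 together in this class of the second run (73.0 to 82.6) and 90.3% in the third (86.2 to 93.5), against 27.8% and 40.2% in the cytotoxic lymphocyte-like class. Klrk1 was at 38.8 (32.1 to 46.4) and 23.3 CPM (19.5 to 27.5), with intervals that overlapped those of B cell-like cells (37.8 to 89.5 and 9.94 to 20.3). Klrc1, Klrc2 and Klre1 were at 4.56 CPM or less. Trac was found in 75.5% and 74.4% of the class.

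The clusters of this class differed in the balance of the members. In cluster 24 of the second run, the 115 cells, of which 85.2% had Trdc, had Klrk1 at 151 CPM, Klrd1 at 32.9 and Klrb1c at 21.9. Klrd1 took 17.9% of the UMIs of Klrd1 and Klrk1 together (9.61 to 29.2), against 61.5% in the cytotoxic lymphocyte-like class. The type 17-like class of the third run had 16.8% (11.4 to 23.5), and its cluster 5 had 12.2% (6.99 to 19.3), with intervals that overlapped that of cluster 24. In cluster 5, 74.3% of 393 cells had Trac and Klrb1c was at 51.3 CPM. The leading genes of cluster 24 included S100a4, S100a6, Cxcr6 and Cd163l1, the last of which encodes SCART1. The 641 cells of cluster 3, which were mostly Trac-positive (85.5%), had Klrk1 at 23.7 CPM and Klrb1c at 85.0, and Klrd1 took 46.2% (37.0 to 55.6). Without the highest Scrublet scores, Klrd1 in this class of the second run was at 9.23 rather than 21.8 CPM, and Klrk1 at 33.2 rather than 38.8. In the third run, Klrd1 was then at 2.97 rather than 4.68 CPM, and Klrk1 at 21.2 rather than 23.3. How much of the contrast between clusters 3 and 24 rests on the cells with these scores was not measured.

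Klrd1 had the most UMIs of the members in many classes, as in the cytotoxic, DN3-like, erythroid-like and γδ-like classes of the second run (31.9% to 47.9% of member UMIs). The erythroid-like name rests on hemoglobin genes alone. A CD3 gene was found in 99.4% and Trdc in 82.6% of those cells, and Rag1 was among their leading genes. Klrd1 was also first in the progenitor-like clusters (45.8% and 60.7%, 1 cluster in each of the second and the third runs), which met the markers Kit, Cd34, Hhex and Spi1. Their leading genes also included Mpo and Elane, which encode enzymes of myeloid granules. Klrd1 was at 24.2 CPM in the second run (285 cells) and 32.4 in the third (247 cells), with Klrk1 at 8.94 and 6.13. Klrd1 thus took 73.0% of the UMIs of both genes in the second run (62.6 to 81.9) and 84.1% in the third (76.7 to 89.9). In the latter this was above the 50.3% of the cytotoxic lymphocyte-like class, the 52.9% of B cell-like cells (40.6 to 64.9) and the 52.4% of DN3-like cells (36.4 to 68.0). It was also above the 66.9% of the γδ-like class (60.8 to 72.7). These intervals take UMIs as independent, though the 111 Klrd1 UMIs of the progenitor-like cluster of the third run lay in 47 cells. Differences between cells are thus not covered by them. The γδ-like cluster 25 had 74.1% (66.5 to 80.7) and unnamed cluster 15 of that run 75.0% (50.9 to 91.3), which overlapped the progenitor-like interval. In the second run, DN3-like cells had 71.9% (53.3 to 86.3), which overlapped that of the progenitor-like cluster. Unnamed clusters 10, 11, 19 and 20 there, with Klrd1 at 6.96 to 13.4 CPM, had 78.8% to 92.9%. The level of Klrd1 in the progenitor-like cluster of that run (18.7 to 30.9) and that in B cell-like cells, at 49.3 CPM, had overlapping intervals. Without the highest Scrublet scores, Klrd1 was at 17.4 and 20.8 CPM in these clusters and Klrk1 at 3.12 and 2.11. A CD3 gene was found in 54.7% and 63.2% of these cells, fewer than in the cytotoxic lymphocyte-like class.

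Klrd1 was also well above Klrk1 in cluster 21 of the third run (168 cells) and cluster 23 of the second (154 cells), both led by Tnni1, Tnfrsf9, Izumo1r and Nrgn. Both belong to the cytotoxic lymphocyte-like class, but only 20.2% and 24.7% of their cells were positive, against 84.0% to 99.5% in its other clusters. Klrd1 was at 82.3 and 80.7 CPM there, against 11.2 and 29.8 for Klrk1. Trdc was found in 80.4% and 77.3% of these cells and Trac in 58.9% and 62.3%. Klrd1 took 88.1% of the UMIs of both genes in the former (82.0 to 92.6) and 73.0% in the latter (63.2 to 81.4).

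**Figure D4:**
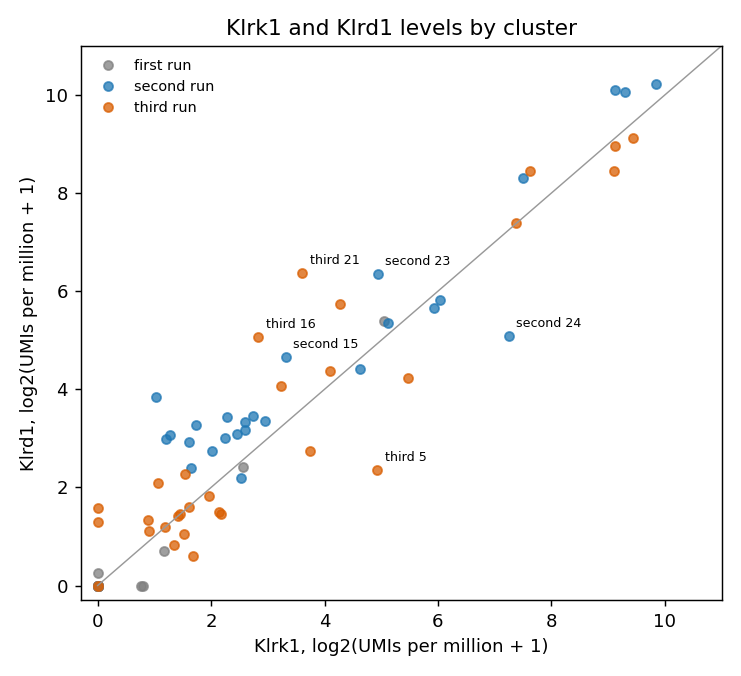
Klrd1 against Klrk1 in each cluster of at least 50 cells, as log2(CPM + 1), colored by run, with the line of equal levels; labels give the run and the cluster number. Clusters 15 and 23 of the second run and 16 and 21 of the third are among those above the line, with Klrd1 at 24.2 to 82.3 CPM, and cluster 24 of the second run and cluster 5 of the third are among those below it, as are the unlabelled clusters 1, 20 and 27 of the third.

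Many cells held UMIs of several members. In the cytotoxic lymphocyte-like class, 61.3% of cells in the second run and 62.7% in the third held UMIs of at least 3 of the 6 genes, as did 78.2% of the NK cell-like cells. All 6 genes were found in 3.03%, 5.75% and 18.8% of these cells, respectively. Single members were found in 27.0% (Klrc1) to 79.4% (Klrd1) of cytotoxic lymphocyte-like cells of the second run. The share with at least 3 that such rates alone would give was not computed, so these shares do not show joint detection. In the type 17-like class only 1.72% and 1.32% held at least 3, while 31.7% and 36.1% held exactly 1.

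Inside the cytotoxic lymphocyte-like class, each of the other 5 members was found more often in cells with Klrk1 than in cells without it. Of cells with Klrk1, 87.8% had Klrd1 in the second run (85.9 to 89.6) against 68.9% of cells without it (65.9 to 71.8), and 81.3% against 53.1% in the third. Klrc2 was found in 47.0% of cells with Klrk1 and in 20.4% of those without it in the second run, and in 66.2% and 29.1% in the third. Klrb1c differed less by Klrk1 in the second run, at 63.8% (61.1 to 66.5) against 55.8% (52.6 to 58.9). Deeper cells have more of every gene, and over both runs the class pools clusters with 20.2% to 99.5% positive cells. These shares are therefore a description of the cells of each library.

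Since CD94 needs an NKG2 partner at the surface, Klrd1-positive cells were split by the transcripts of NKG2A and NKG2C. Of 1785 such cells in the cytotoxic lymphocyte-like class of the second run, 15.1% had Klrc1 only (13.5 to 16.9), 25.2% Klrc2 only (23.2 to 27.3), 267 cells both and 44.7% neither (42.4 to 47.0). Of 844 in the third run, 5.21% had Klrc1 only (3.81 to 6.94), 35.3% Klrc2 only (32.1 to 38.6), 24.5% both (21.7 to 27.6) and 35.0% neither (31.7 to 38.3). The NK cell-like cluster had 42.2% with both (31.4 to 53.5) among 83 cells. In both runs the activating partner was found alone more often than the inhibitory one in the cytotoxic lymphocyte-like class, within the limit that reads of this pair can be ambiguous. More of the 3' windows of Klrc1 than of Klrc2 are shared (53.1% against 20.1%). Whether this lowered the counts of Klrc1 more than those of Klrc2 was not tested. By level the runs differed in this class. Klrc1 was at 200 CPM and Klrc2 at 165 in the second run, against 91.2 and 164 in the third. Cells without Klrd1 had neither partner in 72.7% and 69.6% of cases.

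**Figure D5:**
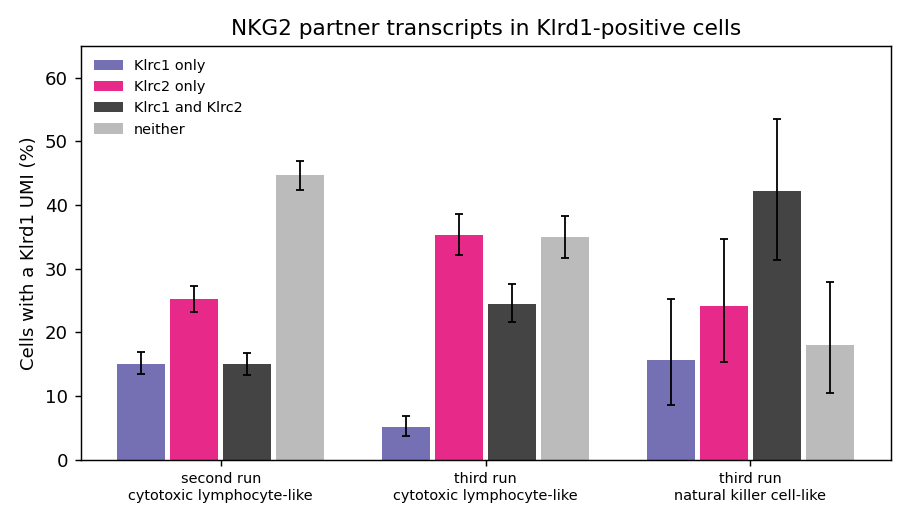
Share of Klrd1-positive cells with transcripts of Klrc1 only, Klrc2 only, both or neither, in percent, in the cytotoxic lymphocyte-like class of the second and the third runs and the NK cell-like cluster of the third; bars start at 0 and error bars are exact binomial 95% intervals. Klrc2 alone is found in 25.2% and 35.3% of the cells of the cytotoxic lymphocyte-like class, above Klrc1 alone at 15.1% and 5.21%.

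Across the 80 clusters of at least 50 cells of the 3 runs, the 6 genes had Pearson correlations of log2(CPM + 1) between 0.91 (Klre1 and Klrb1c) and 0.97 (Klrc1 and Klrc2). Clusters of a run share its library and depth, and no test was made. Among 9809 other genes, those most like the members were Gimap3 (0.89 to 0.94 for all 6), Il2rb, which encodes the shared β chain of the IL-2 and IL-15 receptors (0.94 for Klrb1c), and Xcl1, a chemokine (0.94 for Klrd1). Klrk1 and Klrb1c had Id2 and Cxcr6 among their 5 nearest genes, with correlations of 0.90 to 0.92. The other 4 had Ccl5 there instead, at 0.88 to 0.91.

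Genes of the same pathway were compared between cells with and without a member. Over all genes with at least 50 UMIs, 10.1%, 5.50% and 7.0% were at least 2-fold higher in positive cells of the first, second and the third runs, and 5.44%, 2.95% and 7.95% at least 2-fold lower. The lists were counted against this background, with all 6 members left out. Positive cells were chosen by the members, so these counts describe the cells that hold them. The 50 UMIs were counted over positive and negative cells together, so a gene could reach them through the positive cells alone.

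Of the 4 adaptors, 2 in the second run and 3 in the third were at least 2-fold higher in positive cells and none lower. Hcst, which encodes DAP10, was at 506 against 107 CPM in the second run and 457 against 94.1 in the third. Fcer1g was at 201 against 21.3 CPM and 242 against 18.4. Tyrobp was at 52.3 against 29.8 CPM in the second run, less than a 2-fold difference, and at 140 against 36.7 in the third. Cd247, the CD3ζ chain, was at 152 against 189 and 111 against 161 CPM. In the first run, 3 of 4 were higher, with Tyrobp at 347 against 1.34 CPM.

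Of the other NK complex genes with enough UMIs, 11 of 14 were higher in positive cells in the second run. In the third run 13 of 16 were higher, and none was lower in either run. Several had enough UMIs mainly through the positive cells, such as Klri2 with 276 UMIs there and 10 in negative cells of the second run. Their being higher thus follows in part from the minimum. In the first run only Cd69, Clec2d and Clec2i had enough UMIs, and 0 of 3 were higher or lower. Of the Ly49 receptor genes, Klra1 was at 73.1 against 0.228 CPM there and Klra9 at 36.5 against 0.0506, from 20 and 10 UMIs in positive cells. Klra9, a Ly49 receptor gene, was at 386 against 4.61 CPM in the second run and 252 against 1.58 in the third, and Klra1 was at 173 against 6.51 and 150 against 5.05. Ly49 genes are near copies of each other and their counts are uncertain. Klri2, a partner of Klre1, was at 19.4 against 0.260 and 10.5 against 0.0631 CPM, whereas Klri1 had 0 UMIs in positive cells of the second run and 6 in those of the third. Klra3 was at 69.4 against 0.911 and 96.0 against 0.852 CPM. Cd69, an early activation marker, was at 82.5 against 73.9 and 202 against 199 CPM.

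Of the ligands, 4 had enough UMIs in the second and the third runs, and 0 were 2-fold higher and 0 lower. In the first run 1 of 4 was higher, namely H2-T23, which encodes Qa-1b, at 54.8 CPM (30.7 to 90.4) against 22.2 (20.7 to 23.7). It was at 54.8 against 36.5 CPM in the second run and 105 against 68.1 in the third. Ulbp1, a ligand of NKG2D, was at 2.60 against 4.37 and 10.00 against 16.5 CPM. Clec2d and Clec2i, ligands of NKR-P1 receptors, were at 44.3 against 33.3 and 81.4 against 119 CPM in the second run, and at 73.5 against 42.9 and 72.6 against 109 in the third. H60c had no UMI in kept cells of any run.

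Among the phosphatases and kinases, 1 of 9 was higher in the first run, 2 of 9 in the second and 3 of 10 in the third. Ptpn6, which encodes the phosphatase SHP-1 used by inhibitory receptors, was at 249 against 105 CPM and 216 against 95.9. Zap70 was at 143 against 48.2 and 111 against 44.2 CPM. Lck was at 651 against 740 and 366 against 458 CPM, and Sh2d1a was at 102 against 115 and 76.5 against 84.1. Fyn was at 51.3 against 28.9 and 119 against 62.7 CPM.

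Of the 6 cytokine receptors, 3 were higher in the second run and 4 in the third, as was 1 of 4 with enough UMIs in the first, with Il2rb at 132 against 1.95 CPM. Il2rb was at 199 against 9.63 CPM in the second run and 227 against 13.9 in the third. Il18r1 was at 68.0 against 18.4 and 175 against 28.3 CPM, and Il18rap at 26.9 against 3.41 and 74.9 against 5.79. Il2rg, the common γ chain, was at 217 against 123 and 228 against 116 CPM. Of the transcription factors, 7 of 9 and 8 of 10 were higher, and 3 of 4 in the first run. Some reached the minimum only through positive cells, so their being higher follows in part from it. Tbx21 had 471 UMIs in positive and 34 in negative cells of the second run, and 443 and 44 in the third. Eomes had 184 and 39 in the third. Id2 was at 1012 against 140 CPM and 660 against 75.9, and Tbx21, which encodes T-bet, was at 33.1 against 0.885 and 29.7 against 0.694. Runx3 was at 92.4 against 55.6 and 201 against 125 CPM, and Tox at 54.1 against 72.4 in the second run. Zbtb16, which encodes PLZF, was at 14.9 against 5.03 and 64.3 against 16.7 CPM.

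Cytotoxic effectors and chemokines were higher for 5 of 6 genes in the first run, 8 of 10 in the second and 10 of 11 in the third. Nkg7 was at 1040 against 289 and 848 against 217 CPM, Ccl5 at 642 against 17.8 and 544 against 10.8, and Ctsw at 392 against 52.2 and 479 against 57.4. Gzma was an exception in all 3 runs, at 515 against 741 CPM in the first, 306 against 266 in the second and 464 against 541 in the third, and it is also among the 9 NK cell markers.

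Among the αβ receptor genes, Trac was higher (734 against 72.6 CPM and 355 against 32.2), while Trbc1 was at 1305 against 1811 and 1171 against 1739, and Trbc2 at 1753 against 1947 and 1719 against 2141. Of the γδ receptor genes, Tcrg-C1 was at 916 against 1661 CPM in the second run and 264 against 490 in the third, and Tcrg-C2 at 762 against 1309 and 227 against 396. Tcrg-C4 was at 362 against 549 and 161 against 246 CPM. Trdc was at 352 against 653 and 205 against 446 CPM, and was past the 2-fold limit in the latter. Trdv4, at 2.15 against 0.615 CPM, was higher in the third run, and Tcrg-C1, at 237 against 548, was lower in the first. The CD3 list had 0 of 4 genes higher and 0 lower in all 3 runs, with Cd3d at 731 against 462, Cd3e at 797 against 670 and Cd3g at 1785 against 2014 CPM in the second run.

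Positive cells without any CD3 transcript were few, with 2, 50 and 62 cells in the first, second and the third runs. Those of the third run had Ncr1 in 30.6% and Eomes in 27.4% of cells, against 2.80% and 3.50% of positive cells with CD3, and 22 of them lay in the NK cell-like cluster. Cd79a, a B cell marker, was found in 16.1% of them, and 10 lay in B cell-like clusters. Those of the second run had Ncr1 in 2 cells, Tyrobp in 68.0%, Trbc2 in 96.0% and Trdc in 48.0%, and 6 lay in the B cell-like cluster. Over all positive cells, Ncr1 was found in 7 of 38, 22 of 3062 and 67 of 1774 cells of the first, second and the third runs, and in 0, 0 and 6 negative cells. The 9 NK cell markers summed to 1297, 574 and 947 CPM in positive cells and to 746, 318 and 601 CPM in negative cells. Gzma alone was at 515, 306 and 464 CPM in positive cells and at 741, 266 and 541 CPM in negative cells. It made up most of each sum in negative cells, so these sums say little of the other markers there. In the first run, Itga2 and Prf1 had no UMI in positive cells. Of Trac-only positive cells, 0.573% and 1.18% held Ncr1 in the second and the third runs. The part of NK cells in the levels of the whole runs was not tested.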

How the data were processed

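Per the paper's methods, the authors aligned 10x 3' reads (V2 or V3.1 kits) to mm10 with Cell Ranger v2.1.1 or v4.0.0, and the deposited values are UMI counts per gene and cell, as whole numbers. The header of the third run names 4.0.0, and which was used for the others is not given in the sources used here. The submitters' notes also name R 3.6.3 and Seurat 2.3.

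Levels are summed counts per 1000000 UMIs (CPM), with exact Poisson intervals, and shares have exact Clopper-Pearson intervals, both at 95%. Intervals of levels and of shares of UMIs take UMIs as independent and leave out differences between cells. Each run was clustered alone in scanpy 1.11.5 (2000 variable genes, 15 components, 20 neighbors, Leiden resolution 2.0), without the members, other Klr genes or listed genes. A cluster with 50 or more cells was called "-like" for the type with most markers, at least 3, each reaching 50 CPM and 4 times the median of clusters. It stayed unnamed on a tie or where its 10 leading genes held more markers of another type. The markers and lists, like the members, were chosen with earlier results of these data known, and this scoring was chosen after they were examined. Scrublet scored doublets, which were kept except in alternatives without the highest 8% of scores, since its own threshold called none in the first run. Thinning drew 2000 UMIs per cell. Genes with 50 or more UMIs over both groups together were compared by 2-fold, with sums of 0 set at 3 counts over the group.

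The text names the members, Trac, Trdc, the CD3 genes, the 4 genes of each list highest in positive cells and the 5 genes most like each member. Klrc3, Klri1, Klri2, H60c, Trdv4, Eomes, Ncr1, Cd79a and leading genes of clusters were named after their values were seen. With 1 library per sort no test was run. The functions were checked on simulated data. Positions are from GENCODE M21 and promoters from RefSeq.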

Additional observations from a re-analysis of the deposited data

Results flagged for a closer look

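Cells outside the limits on genes and mitochondrial counts also held the 6 genes. In the second run, 13 of 35 such cells were positive (37.1%, interval 21.5 to 55.1), against 34.6% of kept cells (33.6 to 35.6). In the third run, 279 of 1358 were positive (20.5%, 18.4 to 22.8), against 23.6% of kept cells (22.7 to 24.6). They are given here because the comparisons above left these cells out. Of these, the 762 cells with over 7% mitochondrial counts had the 6 genes at 366 CPM and the 552 cells with over 5000 genes at 20.5 CPM. No cause was tested.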

How the results depend on the processing

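No paired analysis was possible because each sort was sequenced once and no test was run. Of 114 alternative values of the main results, 64 stayed within their limits, 50 moved and 0 reversed. For single genes and lists, 123 of 168 stayed, 45 moved and 0 reversed.

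With 2000 UMIs per cell, the share of positive cells was 0.471%, 27.4% and 16.5% in the first, second and the third runs. Among positive cells, Trac was then found in 11.5%, 77.9% and 56.8%, Trdc in 14.9% and 12.7% (second and the third) and CD3 in 95.2% (the third run). Asking for 2 UMIs gave 0.435%, 24.4% and 17.1% positive cells. Trac was then found in 91.7% and 83.7%, Trdc in 16.1% and 19.8% (second and the third), and CD3 in 99.4% (second). Genes 2-fold lower in positive cells then numbered 1779 and 2185. Without limits on cells, the third run had 149 CPM, with Trac in 64.7% and CD3 in 94.6% of positive cells.

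Without the highest 8% of Scrublet scores, 33.4% of the second run was positive, levels were 384 and 178 CPM, Trdc was found in 24.5% and 27.0%, and the log2 ratio of Trac-only to Trdc-only cells was 6.38 and 5.65. The leading 3 clusters then held 93.6% and 81.7% of the UMIs, and 626 rather than 332 genes were lower in the second run. With 2 UMIs of Trac or Trdc the log2 ratio was 5.87 (the third run). The mean over cells gave 6.27, 724 and 299 CPM. The leading 3 clusters held 87.2% and 88.2% at resolution 1.0, 78.9% with another random seed (second) and 95.5% with the listed genes kept (first).

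A minimum of 200 UMIs per gene left 532, 379 and 574 genes higher and 155 and 621 (second and the third) lower. With no minimum, 1635, 1602 and 2189 were higher and 811 and 1549 lower. The number of genes compared changes with the minimum, so these counts are not shares. The causes of these shifts were not tested. The 38 positive cells of the first run limit every share given for it.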
